A study of Rattus norvegicus with 9 samples.

Results

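A set of 40 genes of the cell cycle and of DNA replication was followed in 9 rat livers, found by gene symbol and set by their known roles, with earlier results of these data known. They fall into 6 genes of entry into S phase, 14 of DNA replication and 20 of mitosis. A row was found for 38 of the 40 in the tables of 32883 genes. E2f1 and Ccnb2 had none under those symbols and were not analysed here. All 38 passed the filter on low counts. In livers with acute-on-chronic liver failure (ACLF) 15 of the 19 mitosis genes were higher than in normal livers in each of the treatment groups, beside 20.7% of all genes tested that were called higher in empty and 18.2% in UTOpiA livers. When normal 2 was left out the count was 7 in each group with edgeR, and 13 and 12 with DESeq2. None of the 14 replication genes and none of the 5 S-phase entry genes passed the same test. No member was called between the treatment groups, where edgeR called 0% of all genes tested and DESeq2 0.863%.

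The animals were male Sprague-Dawley rats of 8 to 11 weeks. ACLF was induced by tying off the common bile duct, which blocks bile flow and scars the liver, and 21 days later by an intraperitoneal dose of 0.25 mg/kg lipopolysaccharide (LPS), a bacterial endotoxin. Whole blood was led through an extracorporeal circuit from 1 h after LPS, for 2 h, under heparin and isoflurane. In the empty group (n = 3) the circuit held neither cells nor beads, and in the UTOpiA group (n = 3) it held cellulose acetate beads that adsorb granulocytes and monocytes and, in series, alginate-encapsulated human liver organoids made from induced pluripotent stem cells. Livers of these 6 rats were taken 24 h after LPS. For liver analysis the paper picked rats at random among those still alive. It reports very high mortality in the empty group within 24 h, and the highest survival in the UTOpiA group. The comparison of UTOpiA and empty livers is thus between survivors. For the normal rats (n = 3) no ligation, LPS or circuit is named, so that these steps cannot be told apart in any comparison with them. Each library held between 14241172 and 17321677 counts.

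Cells commit to division when D-type cyclins and then cyclin E with Cdk2 release the E2F transcription factors, which switch on the genes of DNA replication. Genes of the later phases, G2 and mitosis, are transcribed in a second wave whose promoters typically carry a CHR (cell cycle genes homology region) element together with CCAAT boxes. Hepatocytes of the adult liver rarely divide, but can re-enter the cycle after injury, and biliary, stromal and immune cells of the injured liver can divide as well. The study asked whether the treatment promoted a regenerative response. Its evidence included more hepatocytes stained for Ki-67, a protein of dividing cells, in UTOpiA livers at a later time than the livers used here. It also counted fewer cells stained for p21, a cell-cycle inhibitor, at 24 h after LPS. The values here are RNA of whole liver, another measure than either count.

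The normal livers were not alike for these genes. Normal 3 was the highest of the 3 normal livers for 33 of the 38 members, among them 13 of 14 replication and 16 of 19 mitosis genes. Of the 6 ACLF livers, UTOpiA 1 was the highest for 20 members and empty 2 for 12. The values are given below for each liver in the order of the replicates, as CPM, the counts per 1000000 counts of the library after TMM scaling, and a gene was called where the Benjamini-Hochberg adjusted p of edgeR's quasi-likelihood test over 14089 genes was under 0.05 and the fold change above 2.

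**Figure D1:**
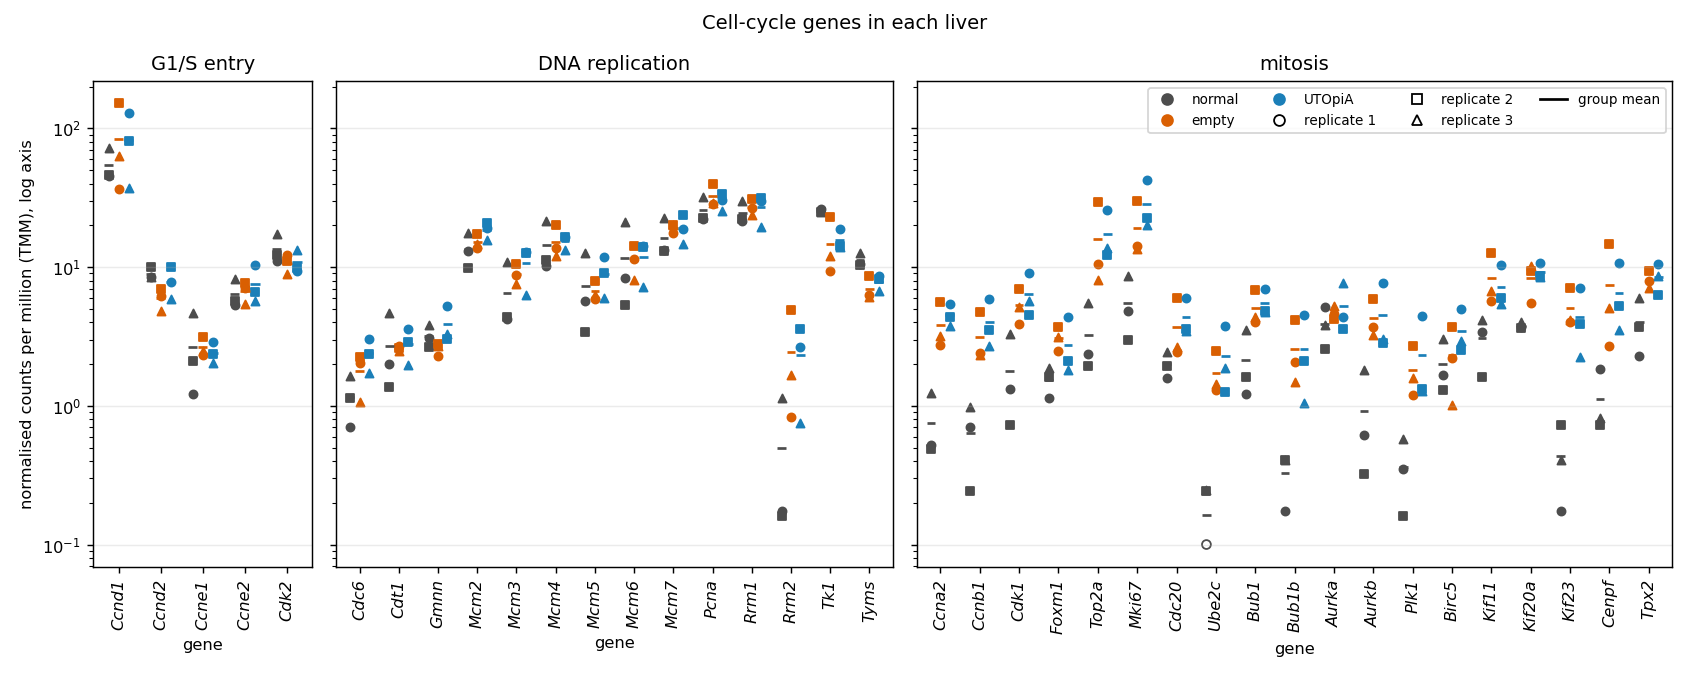
Normalised CPM (log axis) of the 38 members in each liver, in panels for S-phase entry, replication and mitosis; colour marks the group, the symbol the replicate, the dash the group mean, and an open symbol at the foot a count of 0 (Ube2c in normal 1). The 6 ACLF livers lie above all 3 normal livers for 15 of 19 mitosis genes and for 0 of 14 replication genes.

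Genes of entry into S phase did not pass the test in either comparison with normal livers. None of the 5 measured was called among the 20.7% of all genes called higher and 11.1% called lower in empty livers, or among the 18.2% and 6.81% in UTOpiA livers. Their median log2 fold change was -0.01 in the empty and -0.14 in the UTOpiA group, beside 0.04 and 0.05 over all genes tested. These medians of 5 genes turned with 1 liver or with the scale, from -0.36 (without normal 1) to 0.57 (limma on log2(TPM + 0.1)) in empty livers and, in UTOpiA livers, from -0.23 (DESeq2 without normal 1) to 0.44 (without normal 3).

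Ccnd1 (cyclin D1), the cyclin that answers growth signals, stood at 45.4, 46.2 and 71.9 CPM in normal livers, 36.8, 152 and 63.3 in empty livers and 129, 80.8 and 37.1 in UTOpiA livers. Empty 2, UTOpiA 1 and UTOpiA 2 were above every normal liver and empty 1 and UTOpiA 3 below every one, so that the groups overlapped. The log2 fold change from normal was 0.63 (SE 0.56, adjusted p = 0.385) in the empty and 0.59 (SE 0.56, adjusted p = 0.431) in the UTOpiA group. Ccnd2 (cyclin D2), its relative, was at 8.49, 10.02 and 8.45 CPM in normal, 6.22, 6.97 and 4.85 in empty and 7.80, 9.95 and 5.87 in UTOpiA livers. All 3 empty livers lay below the normal ones, with a log2 fold change of -0.58 (SE 0.24) that missed the threshold (adjusted p = 0.0668), and the UTOpiA livers overlapped with normal livers (log2 -0.19, SE 0.23, adjusted p = 0.555).

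Ccne1 (cyclin E1), which activates Cdk2 at the start of S phase, had 1.22, 2.10 and 4.67 CPM in normal, 2.33, 3.11 and 2.50 in empty and 2.86, 2.37 and 2.03 in UTOpiA livers. The normal livers alone spanned the values of all ACLF livers. The log2 fold changes were -0.01 (SE 0.45, adjusted p = 0.983) and -0.14 (SE 0.45, adjusted p = 0.826). Its partner kinase Cdk2 was at 11.02, 12.3 and 17.4 CPM in normal, 12.2, 10.99 and 8.89 in empty and 9.30, 9.90 and 13.3 in UTOpiA livers, again with overlap. For Cdk2 the log2 fold changes were -0.34 (SE 0.23, adjusted p = 0.232) and -0.33 (SE 0.23, adjusted p = 0.277). Ccne2 (cyclin E2), whose row overlaps Ints8 on the other strand, was not called either, at log2 0.06 and 0.23.

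Replication genes showed no call in either ACLF group, where 20.7% of all genes were called higher and 11.1% lower in empty livers and 18.2% and 6.81% in UTOpiA livers. In empty livers 8 of the 14 had a positive and 6 a negative log2 fold change, with a median of 0.11. In UTOpiA livers 12 were positive and 2 negative, with a median of 0.23. Without normal 3 the medians were 0.53 and 0.61, without normal 2 that of empty livers was -0.05, and without UTOpiA 1 that of UTOpiA livers was 0.05. The 95% interval of the log2 fold change lay wholly within 2-fold in either direction for 6 of 14 genes in empty and 7 of 14 in UTOpiA livers, and for the remaining genes it reached past 2-fold.

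E2F proteins bind to short sites near the start of many replication genes, and such letters were searched in the 250 bases before the RefSeq start (build GRCr8) of the 27 members with a promoter entry, 11 of them replication genes. The letters TTTCCCGC, TTTGGCGC or TTTCGCGC were found on either strand in 5 of 11 replication promoters (45.5%), in 1 of 14 mitosis promoters (7.14%) and in 1.49% of 27457 promoters. The stretches are shown because these 5 genes are the replication members whose promoters hold E2F letters. E2F letters and CCAAT boxes, on either strand and partly overlapping, are in capitals, and each stretch is written along the gene's own strand:

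Mcm2 (chr4:122918095-122918194, minus strand, bases -100 to -1): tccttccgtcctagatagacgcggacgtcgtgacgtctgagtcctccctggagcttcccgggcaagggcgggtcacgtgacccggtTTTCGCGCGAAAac
Mcm5 (chr19:13488713-13488812, plus strand, -100 to -1): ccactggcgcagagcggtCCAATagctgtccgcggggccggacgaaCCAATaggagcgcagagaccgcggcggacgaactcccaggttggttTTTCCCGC
Mcm6 (chr13:42404383-42404502, minus strand, -150 to -31): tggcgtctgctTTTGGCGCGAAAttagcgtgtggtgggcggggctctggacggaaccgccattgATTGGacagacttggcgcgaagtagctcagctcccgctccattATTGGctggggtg
Mcm7 (chr12:22163209-22163328, minus strand, -150 to -31): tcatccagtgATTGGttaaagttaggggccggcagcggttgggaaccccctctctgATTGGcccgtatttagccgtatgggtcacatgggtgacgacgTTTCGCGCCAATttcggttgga
Tyms (chr9:120776084-120776183, minus strand, -100 to -1): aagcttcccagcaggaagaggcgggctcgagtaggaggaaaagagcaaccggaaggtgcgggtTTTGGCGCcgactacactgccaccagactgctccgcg

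In Mcm2 and Mcm6 the capitals hold E2F letters on both strands that overlap by 4 bases, and in Mcm7 the E2F letters run into a CCAAT box. A match is a run of letters and no measurement of binding.

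Licensing factors load the Mcm helicase onto origins in G1. Cdc6, which brings the helicase to the origin, had log2 fold changes of 0.61 and 1.04 (adjusted p = 0.289 and 0.0938). Cdt1, the second loader, was at -0.04 and 0.06, and Gmnn (geminin), its inhibitor, at -0.30 and 0.27, in empty and UTOpiA livers respectively.

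The helicase subunits Mcm2 to Mcm7, which unwind DNA at the fork, ranged from -0.11 (Mcm5) to 0.47 (Mcm3) on the log2 scale in empty livers and from 0.03 (Mcm6) to 0.72 (Mcm3) in UTOpiA livers. Mcm2 was at 13.04, 9.78 and 17.6 CPM in normal, 13.7, 17.3 and 14.7 in empty and 18.99, 20.8 and 15.6 in UTOpiA livers. Normal 3 stood among the ACLF livers, and the log2 fold changes were 0.17 (SE 0.22, adjusted p = 0.535) and 0.45 (SE 0.22, adjusted p = 0.128). Mcm5 was at 5.69, 3.40 and 12.7 CPM in normal, 5.86, 7.99 and 6.29 in empty and 11.8, 9.04 and 6.02 in UTOpiA livers. Here normal 3 was the highest of all 9 livers, and the log2 fold changes were -0.11 (SE 0.44, adjusted p = 0.848) and 0.30 (SE 0.44, adjusted p = 0.614). Mcm6 was at 8.31, 5.34 and 21.2 CPM in normal, 11.4, 14.1 and 8.12 in empty and 14.2, 13.99 and 7.22 in UTOpiA livers, with normal 3 again above the rest. Its log2 fold changes were -0.05 (SE 0.48, adjusted p = 0.936) and 0.03 (SE 0.49, adjusted p = 0.971). Without normal 3, Mcm3 was called higher in both groups, at log2 1.06 (adjusted p = 0.0382) in empty and 1.31 (adjusted p = 0.0238) in UTOpiA livers, together with Rrm2, so that the count of replication genes called went from 0 to 2 in each. The row of Mcm7 overlaps 3 microRNA genes that lie within it.

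Pcna, the sliding clamp that holds DNA polymerase on its template, was at 22.4, 22.6 and 31.8 CPM in normal, 28.5, 39.8 and 28.97 in empty and 30.4, 33.7 and 25.6 in UTOpiA livers. It was the most abundant member of the list per length, at 31.6 TPM, which corrects for transcript length, on average in normal livers. The fold changes of Pcna were 0.34 (SE 0.20, adjusted p = 0.181) and 0.22 (SE 0.20, adjusted p = 0.393) on the log2 scale of CPM and missed the threshold. On the TPM scale Pcna was at 27.6, 28.4 and 38.8 in normal and 47.6, 69.4 and 55.3 in empty livers, without overlap, and limma on log2(TPM + 1) gave a log2 fold change of 0.84 (adjusted p = 0.0231), under the fold threshold, on a scale where the median of all genes also lay higher, as given below.

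Among the enzymes of nucleotide supply, values went in both directions. Rrm2, the cell-cycle dependent small subunit of ribonucleotide reductase, had 0.175, 0.162 and 1.15 CPM in normal, 0.830, 4.88 and 1.68 in empty and 2.67, 3.59 and 0.752 in UTOpiA livers. UTOpiA 3 and empty 1 lay below normal 3, so that the groups overlapped. Its log2 fold changes of 2.29 (SE 0.94) and 2.23 (SE 0.95) were the highest in the list but missed the threshold with edgeR (adjusted p = 0.0716 and 0.0891). DESeq2 called Rrm2 in both groups (adjusted p = 0.0278 and 0.0399), as the only replication gene, where it called 19.6% of all genes higher in empty and 17.7% in UTOpiA livers. The large subunit Rrm1 was at log2 0.14 and 0.14.

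Tyms (thymidylate synthase), which makes thymidylate for DNA, was at 10.6, 10.3 and 12.6 CPM in normal, 6.27, 8.58 and 6.10 in empty and 8.59, 8.23 and 6.69 in UTOpiA livers. All 6 ACLF livers lay below all 3 normal livers. The log2 fold change was -0.68 (SE 0.20, adjusted p = 0.0182) in empty livers, a 1.60-fold difference and thus under the fold threshold, and -0.51 (SE 0.20, adjusted p = 0.0655) in UTOpiA livers. Tk1, the thymidine salvage kinase, was at 26.3, 24.98 and 24.8 CPM in normal, 9.39, 22.95 and 12.1 in empty and 18.9, 14.1 and 13.99 in UTOpiA livers, likewise with every ACLF liver below the normal ones. For Tk1 the log2 fold changes were -0.78 (adjusted p = 0.0518) and -0.70 (adjusted p = 0.0866). Without empty 2, Tk1 was called lower in empty livers, at log2 -1.25 (adjusted p = 0.00086). On the CPM scale these were the 2 members of the 14 whose 6 ACLF values lay below all normal values, which held for 21.4% of all genes. On the TPM scale both overlapped, with Tk1 at 20.9 in empty 2 beside 15.9 to 16.96 in normal livers, and Tyms at 11.3 in empty 2 and 11.5 in UTOpiA 2 beside 9.83 to 11.7. The log2 fold change of Tyms in empty livers was then -0.15 (limma on log2(TPM + 1), adjusted p = 0.598).

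Mitosis genes were higher in ACLF livers. Of the 19 measured, 15 were called higher and 0 lower in empty livers, beside 20.7% of all genes called higher, and 15 and 0 in UTOpiA livers, beside 18.2%. The same 15 genes were called in both groups, which share the 3 normal livers. All 19 log2 fold changes were positive in each group, with a median of 1.80 (3.48-fold) in empty and 2.30 (4.91-fold) in UTOpiA livers, and 16 of 19 genes in each did not overlap with normal livers, beside 32.4% and 30.8% of all genes. In 15 of 19 all 6 ACLF livers lay above all 3 normal livers, as did 25.8% of all genes. The number of calls depended on single livers. Without normal 2 the count was 7 in each group and without normal 1 it was 8 in empty and 9 in UTOpiA livers, and without UTOpiA 1 it was 8 in the UTOpiA group. DESeq2 called 13 in empty and 12 in UTOpiA livers without normal 2. Genes whose edgeR call was lost without normal 2 kept their direction, as Top2a did in empty livers at log2 2.01 (adjusted p = 0.0507).

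In the same promoter window the letters TTTGAA of the CHR element were found in 6 of 14 mitosis promoters (42.9%), in 1 of 11 replication promoters (9.09%) and in 16% of all promoters. CCAAT boxes were in 11 of 14 mitosis promoters (78.6%), in 7 of 11 replication promoters (63.6%) and in 34.3% of all. The same 6 mitosis promoters held CHR and CCAAT letters together (42.9%, beside 0 of 11 replication promoters and 5.76% of all promoters). Of these 6 genes 4 were called in both groups, beside 15 of all 19 mitosis genes measured. Cdc20 and Birc5 were not called. Of the 2 S-phase entry promoters, 1 held a CCAAT box (50%). The stretches of 5 of the 6 are shown, those in which both elements fall close together, in capitals on either strand, with E2F letters also in capitals in Cdk1. In Birc5, the sixth and not called, they lie far apart in the window, and no stretch is shown:

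Cdk1 (chr20:19265153-19265292, plus strand, -140 to -1): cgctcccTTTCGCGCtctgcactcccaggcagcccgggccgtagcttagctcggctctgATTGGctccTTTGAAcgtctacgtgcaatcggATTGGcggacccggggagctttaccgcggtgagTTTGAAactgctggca
Mki67 (chr1:199952674-199952793, minus strand, -200 to -81): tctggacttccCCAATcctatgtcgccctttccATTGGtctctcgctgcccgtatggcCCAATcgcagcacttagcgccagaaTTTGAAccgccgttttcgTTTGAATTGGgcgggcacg
Cdc20 (chr5:137255820-137255899, minus strand, -100 to -21): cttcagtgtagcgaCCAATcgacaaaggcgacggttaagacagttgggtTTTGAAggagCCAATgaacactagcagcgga
Top2a (chr10:84473094-84473193, minus strand, -100 to -1): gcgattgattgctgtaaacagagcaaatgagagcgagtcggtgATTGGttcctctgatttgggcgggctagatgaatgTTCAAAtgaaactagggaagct
Kif23 (chr8:71320635-71320694, minus strand, -110 to -51): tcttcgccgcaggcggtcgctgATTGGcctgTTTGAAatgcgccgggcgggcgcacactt

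In Kif23 the CHR letters begin 9 bases after the start of the CCAAT box, and Cdk1 has the same spacing at its upstream CHR.

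**Figure D2:**
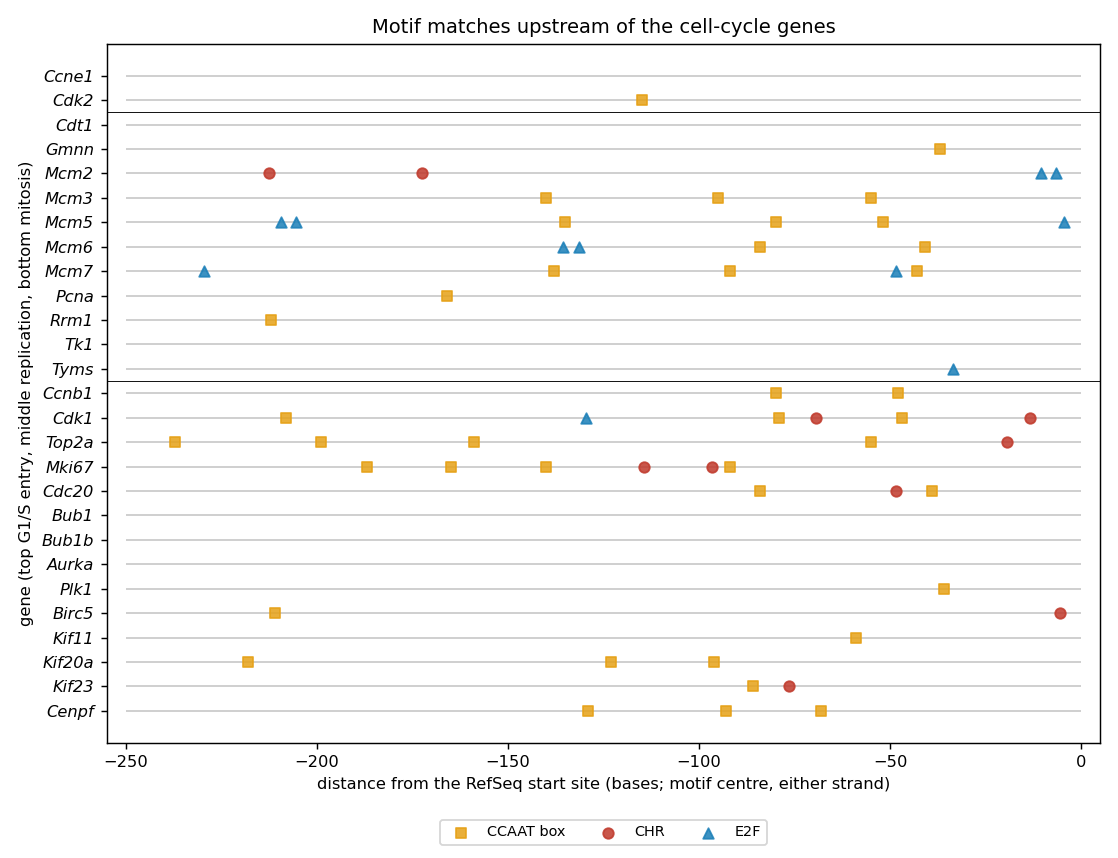
Positions of CHR, E2F and CCAAT letters on either strand in the 250 bases upstream of the RefSeq start, for the 27 members with a promoter entry; the x axis is the distance of the motif's centre from the start in bases. E2F letters fall in 5 of 11 replication promoters and CHR letters in 6 of 14 mitosis promoters, while CCAAT boxes fall in both lists.

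The cyclins Ccnb1 and Ccna2 and the kinases Cdk1, Plk1 and Aurkb, which drive cells into and through mitosis, rose in both groups, and the kinase Aurka was not called in either. Cdk1, the mitotic kinase (chr20:20576377-20591549 in the deposited table), was at 1.31, 0.728 and 3.28 CPM in normal, 3.89, 6.92 and 5.14 in empty and 9.04, 4.49 and 5.72 in UTOpiA livers. All ACLF livers lay above the normal ones, with log2 fold changes of 1.58 (SE 0.51, adjusted p = 0.0284) and 1.85 (SE 0.51, adjusted p = 0.0183). Its partner Ccnb1 (cyclin B1) was at 0.700, 0.243 and 0.984 CPM in normal, 2.39, 4.77 and 2.31 in empty and 5.92, 3.54 and 2.71 in UTOpiA livers. Again no ACLF liver reached down to a normal one, and the log2 fold changes were 2.28 (SE 0.55, adjusted p = 0.00745) and 2.65 (SE 0.55, adjusted p = 0.00508). Ccna2 (cyclin A2), which acts from S phase to early mitosis and whose row overlaps Exosc9 on the other strand, rose by log2 2.35 and 2.58. Plk1, a kinase of mitotic entry and spindle formation, had 0.350, 0.162 and 0.574 CPM in normal, 1.19, 2.68 and 1.59 in empty and 4.42, 1.31 and 1.28 in UTOpiA livers. The ACLF livers lay above the normal ones, and the log2 fold changes were 2.31 (SE 0.69, adjusted p = 0.0209) and 2.67 (SE 0.69, adjusted p = 0.0140). Aurkb, the kinase of the chromosomal passenger complex, rose by log2 2.21 and 2.30.

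Mki67 (Ki-67), the protein used to stain dividing cells (chr1:207993895-208020454 in the deposited table), was at 4.81, 2.99 and 8.69 CPM in normal, 14.2, 29.9 and 13.5 in empty and 42.5, 22.4 and 20.1 in UTOpiA livers. The lowest ACLF liver, empty 3, was above the highest normal one, and UTOpiA 1 was the highest. Its log2 fold changes from normal were 1.80 (SE 0.48, adjusted p = 0.0135) and 2.36 (SE 0.49, adjusted p = 0.00558). Top2a, the topoisomerase that untangles replicated chromosomes, was at 2.36, 1.94 and 5.49 CPM in normal, 10.5, 29.3 and 8.02 in empty and 26.02, 12.2 and 13.7 in UTOpiA livers. Its groups did not overlap with normal livers either, and the log2 fold changes were 2.28 (SE 0.60, adjusted p = 0.0133) and 2.40 (SE 0.61, adjusted p = 0.0138).

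Spindle motors, checkpoint kinases, a kinetochore protein, a spindle assembly factor and a ubiquitin-conjugating enzyme made up the rest of the genes called. The motor Kif23, which acts in cytokinesis, changed most among genes above the detection floor, with log2 fold changes of 3.50 (SE 0.58, adjusted p = 0.00124) and 3.29 (SE 0.58, adjusted p = 0.00235), from 2, 9 and 5 counts in normal livers to between 30 and 132 in ACLF livers. The checkpoint kinase Bub1b followed at log2 2.93 and 2.93, and Cenpf, a protein of the kinetochore, at 2.72 and 2.53. Bub1, another checkpoint kinase, was at 1.26 and 1.37. The motor Kif11, which separates the spindle poles, was at 1.44 and 1.23. Kif20a, whose row overlaps Cdc23 on the other strand, was at 1.14 and 1.29. The spindle assembly factor Tpx2, whose row overlaps an unnamed gene on the other strand, was at 1.02 and 1.08. Ube2c, the ubiquitin-conjugating enzyme of the anaphase-promoting complex, had 0, 3 and 3 counts in normal livers and between 25 and 58 in ACLF livers. As no normal liver held more than 3 counts, the change is given against a floor of 3 counts per library, at which Ube2c was at least 6.93-fold higher in empty and at least 9.21-fold higher in UTOpiA livers.

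The remaining 4 mitosis genes, Foxm1, Cdc20, Aurka and Birc5, were not called in either group. Foxm1, the transcription factor of the late wave, was at 1.14, 1.62 and 1.89 CPM in normal, 2.49, 3.70 and 3.12 in empty and 4.36, 2.12 and 1.81 in UTOpiA livers. Its empty livers lay above the normal ones and UTOpiA 3 fell among them, with log2 fold changes of 1.00 (SE 0.41, adjusted p = 0.0675) and 0.83 (SE 0.41, adjusted p = 0.134). Under 5 of 28 alternatives Foxm1 was called in empty livers. With edgeR on only the 6 libraries compared, its log2 fold change was 1.02 (adjusted p = 0.0370). Cdc20, the activator of the anaphase-promoting complex, was at 1.57, 1.94 and 2.46 CPM in normal, 2.44, 6.01 and 2.64 in empty and 5.98, 3.59 and 3.46 in UTOpiA livers. Empty 1 lay just under normal 3 and the UTOpiA livers did not overlap with normal ones. The log2 fold changes of Cdc20 were 0.89 (SE 0.42, adjusted p = 0.110) and 1.12 (SE 0.42, adjusted p = 0.0613), and DESeq2 called it in UTOpiA livers (adjusted p = 0.0429), which made its count 16 of 19.

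Aurka, the kinase of the spindle poles, was at 5.16, 2.59 and 3.85 CPM in normal, 4.56, 4.24 and 5.24 in empty and 4.36, 3.59 and 7.67 in UTOpiA livers. Its groups overlapped, with log2 fold changes of 0.28 (SE 0.35, adjusted p = 0.537) and 0.42 (SE 0.35, adjusted p = 0.363). Birc5 (survivin), a subunit of the chromosomal passenger complex whose row overlaps an unnamed gene on the other strand, was at 1.66, 1.29 and 3.03 CPM in normal, 2.23, 3.70 and 1.01 in empty and 5.01, 2.53 and 2.93 in UTOpiA livers. Empty 3 was the lowest of all 9 livers, and the log2 fold changes were 0.21 (SE 0.53, adjusted p = 0.767) and 0.80 (SE 0.53, adjusted p = 0.251).

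**Figure D3:**
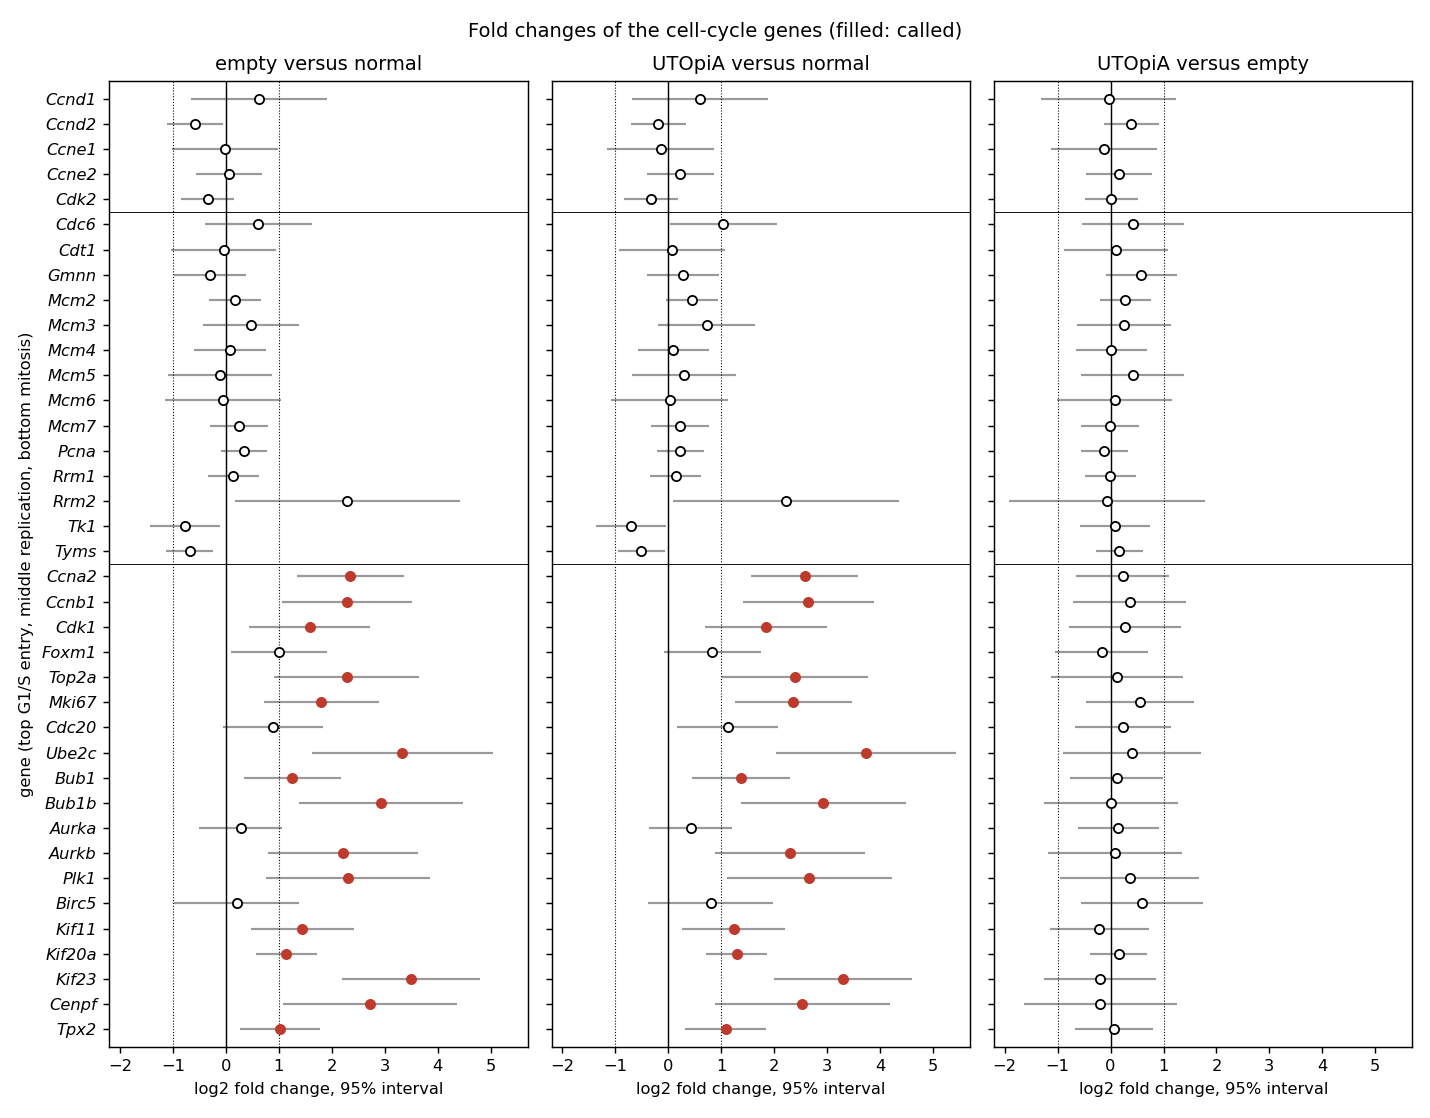
Log2 fold changes of the 38 members in the 3 comparisons, with 95% intervals; filled points were called and dotted lines mark 2-fold. The 15 genes called are mitosis genes in both comparisons with normal livers. None of the 38 was called between UTOpiA and empty livers, beside 0% of all genes tested.

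Per length, mitosis genes were the scarcer transcripts. The median over the 19 genes of the mean TPM was 0.675 in normal, 3.46 in empty and 3.47 in UTOpiA livers, and over the 14 replication genes 5.79, 8.59 and 8.01. On the TPM scale the median log2 fold change of all genes in empty livers against normal was 0.44 to 0.50, and 0.04 on the TMM scale. Relative to that median, replication genes stood 0.06 higher on the TMM scale and 0.12 to 0.16 higher on the TPM scale, and mitosis genes 1.75 and 0.78 to 1.53 higher. The TPM medians of mitosis genes are over 16 of the 19, since Ube2c, Bub1b and Cenpf, among the largest changes, did not pass the filter on low TPM. In UTOpiA livers the all-gene median was 0.05 on the TMM and 0.28 to 0.31 on the TPM scale, and mitosis genes stood 2.24 and 0.83 to 1.66 above it.

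The list mean of log2 CPM, relative to the normal livers, gives each liver a level. For mitosis it was -0.21, -0.32 and 0.54 in normal livers, 1.40, 2.32 and 1.48 in empty livers and 2.49, 1.60 and 1.56 in UTOpiA livers. For replication it was -0.24, -0.37 and 0.62 in normal, 0.04, 0.57 and 0.03 in empty and 0.62, 0.53 and -0.06 in UTOpiA livers. Mitosis levels did not overlap with normal livers, and replication levels did. The difference of these 2 means, in which a common scaling of a library cancels, was -0.08 to 0.05 in normal livers, 1.36 to 1.76 in empty livers and 1.06 to 1.86 in UTOpiA livers. It shows an unequal change of the lists and does not show that replication genes stayed the same.

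**Figure D4:**
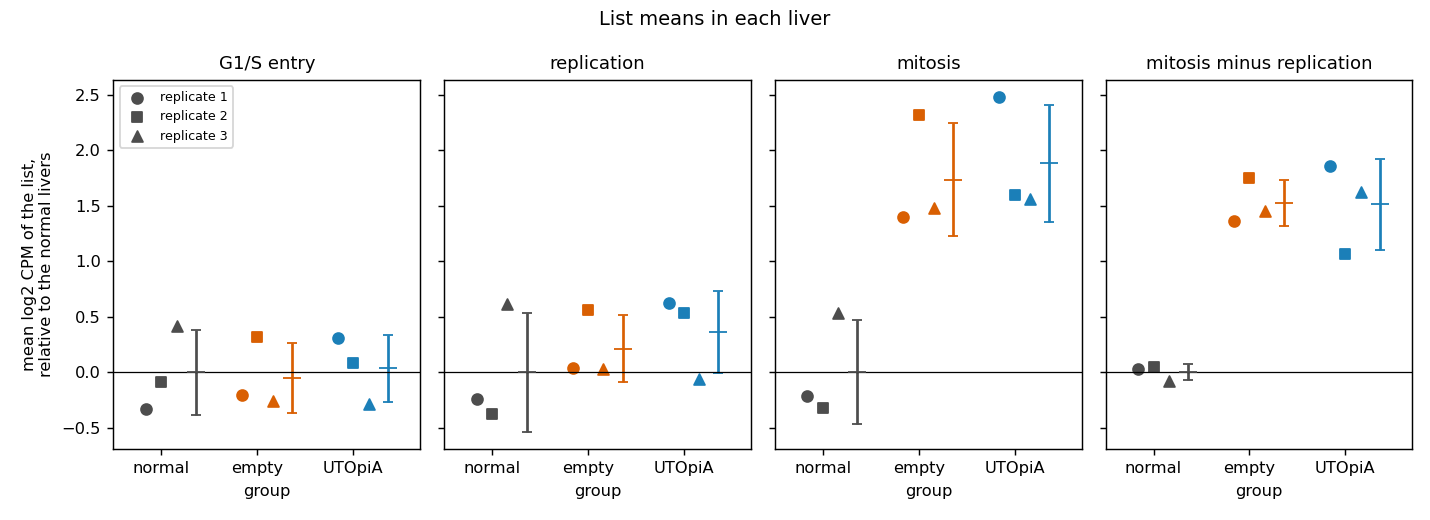
Mean log2 CPM of each list in each liver, relative to the mean of the normal livers, and the difference of mitosis and replication; symbols are replicates and the bars mean ± SD (n = 3). Mitosis was 1.74 ± 0.51 in empty and 1.88 ± 0.52 in UTOpiA livers, and replication 0.21 ± 0.30 and 0.37 ± 0.37, against a normal SD of 0.47 and 0.54.

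Empty 2 and UTOpiA 1 were the highest ACLF livers together for 17 of 19 mitosis genes. These livers also had the highest summed TPM of 10 hepatocyte markers among ACLF livers, 59172 and 59317, beside 32581 to 51628 in the others and 150135 to 162822 in normal livers. Without Alb (albumin), which makes up much of that sum, it was 25564 and 29382, beside 19741 to 25010 in the other ACLF livers. The markers did not move as one, since on the CPM scale empty 2 and UTOpiA 1 were the highest pair for 4 of the 10, UTOpiA 3 was the highest ACLF liver for 5, Alb among them, and empty 2 was the lowest for 2, Hnf4a and Serpina1. The match was not particular to hepatocytes. The same 2 livers also had the highest summed TPM of endothelial markers, 149 and 107, beside 76.6 to 96.9 in the other ACLF livers. They were highest for erythroid markers too, at 26.4 and 19.5, beside 11.3 to 16.6. For each remaining cell type another liver was among the 2 highest. The part of hepatocyte content or of any other cell type in the mitosis levels was not tested.

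Markers of several other cell types moved with the comparison to normal livers, while none of the 3 B and plasma cell markers tested was called and of 7 endothelial markers 1 was called higher and 1 lower in each group. In whole tissue fewer cells of a type and less RNA per cell cannot be told apart. Summed TPM of 8 cholangiocyte markers was 14.7 to 24.8 in normal, 323 to 670 in empty and 134 to 426 in UTOpiA livers, and of 8 stellate cell and fibroblast markers 105 to 116, 859 to 1058 and 449 to 1049. Of the markers tested, 7 of 7 of cholangiocytes were called higher in each group, and 6 and 7 of 8 of stellate cells and fibroblasts, 6 and 6 of 6 of neutrophils, 5 and 4 of 8 of macrophages, 4 and 6 of 7 of T and NK cells and 3 and 3 of 4 erythroid ones in empty and UTOpiA livers. The 8 neutrophil markers summed to 2.25 to 5.28, 187 to 1121 and 175 to 513 TPM (Cxcr1 at 0 counts in all 9 livers), and the 8 macrophage markers to 295 to 346, 438 to 859 and 368 to 789 TPM. The 8 T and NK cell markers summed to 2.12 to 3.66, 14.3 to 28.0 and 13.3 to 39.1 TPM, the 7 erythroid markers with a row to 4.45 to 6.34, 12.8 to 26.4 and 11.3 to 19.5 (Gata1 at 0 in all), the 7 B and plasma cell markers to 8.52 to 12.8, 12.7 to 21.1 and 11.6 to 16.4, and the 7 endothelial markers with a row to 88.0 to 99.5, 76.6 to 149 and 83.3 to 107. The 8 markers of neutrophil precursors summed to 0 to 0.677, 0.813 to 4.80 and 0.333 to 1.05 TPM, the highest in empty 2. Ltf and Ms4a3 were at 0 counts in all livers. The part of each cell type in the mitosis genes was not tested.

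Between UTOpiA and empty livers no member was called, by edgeR or by DESeq2, and no member had an unadjusted edgeR p under 0.05. Over all genes these shares were 0% by edgeR, 0.863% by DESeq2 and 10.3% at the unadjusted p. The lowest adjusted p was 0.539 (Gmnn). Gmnn was also the only 1 of 38 members whose groups did not overlap, beside 12.1% of all genes, at 2.28, 2.79 and 2.69 CPM in empty and 5.27, 3.03 and 3.31 in UTOpiA livers (log2 0.58, SE 0.30). Median log2 differences were 0.02 for S-phase entry, 0.10 for replication and 0.15 for mitosis, beside 0.00 over all genes. Single livers set the size and sign of the mitosis median, which was 0.54 without empty 2 and -0.14 without UTOpiA 1, and that of replication genes ran from -0.08 to 0.36 over the alternatives.

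The spread between livers left room for differences of the mitosis genes. Mki67 was 1.48-fold higher in UTOpiA livers on average, with a log2 difference of 0.56 (95% interval -0.46 to 1.58, adjusted p = 0.701), and for Cdk1 the log2 difference was 0.27 (-0.79 to 1.33). The interval stayed within 2-fold for 4 of 19 mitosis, 7 of 14 replication and 3 of 5 S-phase entry genes, and held 0 for all 38. Pcna had the narrowest interval of the 38, -0.56 to 0.32.

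Further cell-cycle genes outside the 40 were grouped by the same roles. Of 62 other mitosis genes, 30 were called higher and 1 lower in empty livers, beside 20.7% and 11.1% of all genes, and 34 higher and 0 lower in UTOpiA livers, beside 18.2% and 6.81%. Among the genes called with more than 3 counts in at least 1 normal liver, Cdkn3, a phosphatase that acts on Cdk1 and Cdk2, and Nusap1, a spindle protein, had the largest fitted log2 fold changes in empty livers, Cdkn3 from 1, 3 and 4 counts in normal livers to 17, 77 and 39 (log2 3.33, SE 0.72) and Nusap1 from 5, 5 and 10 to 67, 130 and 43 (log2 2.89, SE 0.60). In UTOpiA livers they were Pttg1 (securin), from 2, 0 and 6 counts to 67, 39 and 24 (log2 3.56, SE 0.83), and Cdkn3, at 48, 36 and 20 counts (log2 3.23, SE 0.73). Racgap1, a cytokinesis regulator, went from 0 counts in all 3 normal livers to between 6 and 31 in ACLF livers, at least 3.36-fold higher in empty and at least 3.78-fold higher in UTOpiA livers. With so few counts in normal livers the order of these genes is not fixed. The 1 gene called lower was Spc24, of the kinetochore, at log2 -2.40 (SE 0.55).

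Of 47 other replication genes tested, 3 were called higher and 4 lower in empty livers, and 2 higher and 3 lower in UTOpiA livers, with medians of 0.09 and 0.08. Of all genes, 20.7% and 11.1% were called higher and lower in empty livers and 18.2% and 6.81% in UTOpiA livers. Among the genes called, Cdc45, a part of the active helicase, and Cdc7, the kinase that fires origins, were highest in both, at log2 2.54 (SE 0.46) and 1.83 (SE 0.51) in empty and 1.74 (SE 0.46) and 1.52 (SE 0.52) in UTOpiA livers. Cdc7 had only 3, 3 and 5 counts in normal livers, so that its fold changes are imprecise. Hells, a chromatin remodeller, and Rpa1, which coats single-stranded DNA, were lowest in both, at log2 -1.94 (SE 0.51) and -1.85 (SE 0.13) in empty and -1.76 (SE 0.51) and -1.44 (SE 0.13) in UTOpiA livers. Of 19 other G1/S genes tested, 3 were called higher and 2 lower in empty livers and 2 and 2 in UTOpiA livers, beside the same shares of all genes. Among the genes called, the repressor E2f8, with only 1, 1 and 4 counts in normal livers, had the highest fitted change in both (log2 3.18, SE 0.58 and log2 2.85, SE 0.58), followed in empty livers by the phosphatase Cdc25a (log2 1.17, SE 0.27) and in UTOpiA livers by E2f5 (log2 1.02, SE 0.31). The genes called lower were E2f2 (log2 -1.19, SE 0.27 and log2 -1.04, SE 0.27) and Rb1, the retinoblastoma protein (log2 -1.08, SE 0.22 and log2 -1.01, SE 0.22). Between UTOpiA and empty livers none of these lists held a call, beside 0% of all genes tested.

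Of 5 inhibitors of cyclin-dependent kinases tested, 3 were called higher in both groups, beside 20.7% of all genes in empty and 18.2% in UTOpiA livers. They were Cdkn1a, Cdkn2b (log2 2.12 and 2.11) and Cdkn2c (log2 1.18 and 1.48). Cdkn1a (p21) rose from 50, 25 and 41 counts in normal livers to 399, 814 and 825 in empty livers (log2 3.41, SE 0.46, adjusted p = 0.000583) and 190, 324 and 423 in UTOpiA livers (log2 2.63, SE 0.46, adjusted p = 0.00254). Between UTOpiA and empty livers its log2 difference was -0.78 (95% interval -1.71 to 0.14, adjusted p = 0.544).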

How the data were processed

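Bulk RNA-seq of 9 rat livers was analysed, 3 each of the normal, empty and UTOpiA groups as the labels name them. As deposited, the tables hold raw read counts per gene (the authors aligned trimmed poly(A) RNA-seq reads with HISAT2 and counted them with featureCounts) and TPM values, which the authors derived from those counts. The labels' processing notes name build rn6 and Trimmomatic, while the methods name a mouse build and Cutadapt. The gene identifiers are those of rat, and gene coordinates were taken as deposited. Whether counting used strand is not given in the sources used here, so reads of genes that overlap on opposite strands may not be told apart.

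Counts were tested with edgeR 4.0.16 (R 4.3.3, limma 3.58.1): filterByExpr, TMM scaling and the robust quasi-likelihood test, two-sided, with all 9 libraries in 1 fit of 3 group means and Benjamini-Hochberg adjustment over the 14089 genes kept. SE is the absolute log2 fold change over the root of F, and 95% intervals use the degrees of freedom of the fit. Named members follow a rule by role, plus every member that departs from its list, and other cell-cycle genes are named by the 2 largest calls in each direction, with Racgap1, at 0 counts in normal livers, given as a bound and Nusap1 and Cdkn3 named in its place after their values were seen. The members, the other lists, the cell type markers and the motifs were chosen with earlier results of these data known. List means use log2(CPM + 0.1). Promoters are RefSeq entries of GRCr8, 1 start per gene, for 27 of the 38 members. Alternatives were DESeq2 1.42.0, median-of-ratios scaling, other filters, limma on log2(TPM + 1) and log2(TPM + 0.1), no fold threshold, the 6 libraries compared alone, a replicate block and each library left out, 28 per result (26 for Ube2c, Bub1b and Cenpf, which did not pass the filter on low TPM). The steps were tested on simulated data. Replicates are separate animals by their labels, and no 2 libraries of the same group agreed within sampling noise. Intervals cover the spread between these 3 livers a group.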

Additional observations from a re-analysis of the deposited data

How the results depend on the processing

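Calls of mitosis genes ranged from 7 to 16 in empty and from 7 to 16 in UTOpiA livers against normal when each library was left out in turn, by edgeR or DESeq2, the lowest without normal 2 in both. Replication genes called higher ranged from 0 to 2 in each comparison, 2 being Mcm3 and Rrm2 without normal 3, and replication genes called lower in empty livers from 0 to 1, the 1 being Tk1 without empty 2. With all libraries, DESeq2 called 1 replication gene higher in each comparison (Rrm2), limma on log2(TPM + 0.1) called 1 higher in empty livers (Rrm2), and without the fold threshold 1 was lower in empty livers (Tyms). The cause of these differences was not tested. Median log2 fold changes of the mitosis genes stayed between 1.19 and 2.39 in empty and between 1.08 and 2.65 in UTOpiA livers over the 28 alternatives. Between UTOpiA and empty livers the count of members called was 0 under each of the 28. With all libraries, edgeR called 0% of all genes there and DESeq2 0.863%.

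Replicate numbers did not pair the livers, since the correlations of same-numbered deviations lay between -0.18 and 0.06. Fitted with a replicate block, the mitosis genes called were 12 in empty and 13 in UTOpiA livers and no replication gene was called. Samples of 3 livers a group and 0 to 9 counts of several mitosis genes in normal livers limit the precision of their fold changes.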
